A study of Rattus norvegicus with 16 samples.

Results

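The genes described here are the integrins, laminins and collagens of rat hepatoma H35 cells, a line derived from a liver tumor of the rat, after silencing of Pdrg1 with short hairpin RNAs. Members were all non-control probes of the array whose gene name starts with Itga, Itgb, Lama, Lamb or Lamc with a chain number, or Col with a type and chain number, which gave 97 probes for 72 of the 26269 gene names (of 30367 probes in all). By name there were 14 integrin α chains, 8 integrin β chains, 8 laminin chains and 37 collagen chains. The other 5 genes only share the start of their names with the families. They are Itgb1bp1, Itgb1bp2 and Itgb3bp, which are named for binding an integrin tail, Itgbl1, a secreted protein with repeats like those of integrin β chains, and Col4a3bp, the ceramide carrier now called Cert1.

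Integrins are heterodimers of an α and a β chain that span the plasma membrane, bind matrix proteins outside the cell and connect to the actin or keratin cytoskeleton inside it. Laminins are cross-shaped trimers of an α, a β and a γ chain that form the sheet of the basement membrane, while collagens are triple helices that build either fibrils (such as types I, III and V) or the network of the basement membrane (type IV). In the liver, collagen and laminin are made mostly by cells other than hepatocytes, and the collagen receptor made of Itga1 and Itgb1 is among those that hepatocytes carry.

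Total RNA was hybridized to 16 Agilent rat arrays that read a single Cy3 label, with 4 biological replicates in each of 4 groups. CN-10 is a stable clone carrying a negative control shRNA plasmid, 4-18 (labelled shRNA4-18) a stable clone carrying the shRNA4 plasmid and 3-44 (labelled shRNA3-44) a stable clone carrying the shRNA3 plasmid. All 3 clones were selected first with 1.8 and then with 4 mg/ml G418. The group shRNA3T (labelled shRNA3-trans) is a pool of cells that took up the shRNA3 plasmid, enriched by 1.8 mg/ml G418 alone and not cloned. Each stable group is thus a single clone, and the pool was compared with the stable clone CN-10 because no transient control pool was analysed here. Each group lay on its own slide, so effects of slide and of group cannot be told apart.

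Levels are given as quantile-normalized log2 intensities with their SD (n = 4 arrays), and differences as log2 fold changes with the standard error of limma, whose p-values were adjusted over all probes. A gene was called when the change was at least 2-fold with an adjusted p under 0.05, using its brightest probe. Pdrg1 itself read 13.64 ± 0.22 on average for CN-10, 12.87 ± 0.87 for 4-18, 12.65 ± 0.51 for 3-44 and 12.79 ± 0.27 for shRNA3T. The differences from CN-10 were -0.77, -0.99 and -0.85 on the log2 scale (limma adjusted p = 0.129, 0.105 and 0.143), none of which passed the test. Arrays of 4-18 were the dimmest, with 53.1% to 64.1% of spots well above background against 64.7% to 74.3% on the other 12. Among 12 hepatocyte markers 11 were well above background on every array of at least 1 group, Apoh being the exception, and their calls against CN-10 went 1 up (Ttr) and 5 down (Apoa1, Apob, Fga, Tf and Ahsg) in 4-18, 4 up in 3-44 and 5 up in shRNA3T (next to 6.15%, 1.47% and 2.39% of all genes called). The part of these differences in the values of the matrix genes was not tested.

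To show what the array reads, the probes of 5 members that the results turn on, and of Col4a1 as the clearest collagen example, are printed with their positions on the rn4 build. Each is 60 bases long. The Itga1 probe (chr2:47107893-47112038, minus strand) covers 4146 bases of the genome and so joins sequence on different sides of a gap, as do the second Lamc1 probe (chr13:68251375-68252423, minus strand) and the brightest Col9a1 probe (chr9:22940151-22940982, plus strand). The Itgb5 (chr11:68644285-68644344, minus strand), Lama2 (chr1:18879878-18879937, plus strand) and Col4a1 (chr16:83146135-83146194, plus strand) probes are continuous. In the Col4a1 probe the capitals mark GGN codons, which code for glycine, spaced every 9 bases as the Gly-X-Y repeat of a collagen helix requires. Of the 54 collagen probes this was the only one with at least 5 such codons, and none of the 43 other member probes had as many.
Itga1: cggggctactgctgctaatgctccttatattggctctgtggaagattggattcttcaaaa
Itgb5, brightest probe: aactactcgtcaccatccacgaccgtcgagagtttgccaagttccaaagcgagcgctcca
Lama2: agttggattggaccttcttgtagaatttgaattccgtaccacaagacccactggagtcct
Lamc1, second probe: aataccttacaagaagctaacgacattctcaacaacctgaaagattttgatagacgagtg
Col9a1, brightest probe: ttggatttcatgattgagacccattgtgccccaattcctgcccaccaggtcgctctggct
Col4a1: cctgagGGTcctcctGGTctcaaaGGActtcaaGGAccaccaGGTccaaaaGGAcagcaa

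Of the 72 members, 34 were well above background on every array of at least 1 group (62.7% of all gene names were), and 18 of these were so on all 16 arrays. A further 24 were well above background on some arrays without filling a group, and 14 on none. Detected members comprised 7 of 14 integrin α chains, 4 of 8 β chains, 3 of 8 laminin chains and 16 of 37 collagens. The 14 without signal included the leukocyte chains Itgal, Itgax, Itga4, Itgae and Itgb2, the type VI collagens Col6a1 and Col6a2, and Lama1, whereas Itgam and Itgb7, also known from leukocytes, were well above background on all 16 arrays and Itgad on every array of 3-44 and shRNA3T. By group, 31 members were well above background on every array of CN-10, 32 of 3-44, 32 of shRNA3T and 18 of 4-18. The low number in 4-18 goes with the dimmer arrays of that clone, and the part of brightness in it was not tested. In such bulk RNA, fewer cells that express a gene and less of its RNA per cell cannot be told apart.

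**Figure D1:**
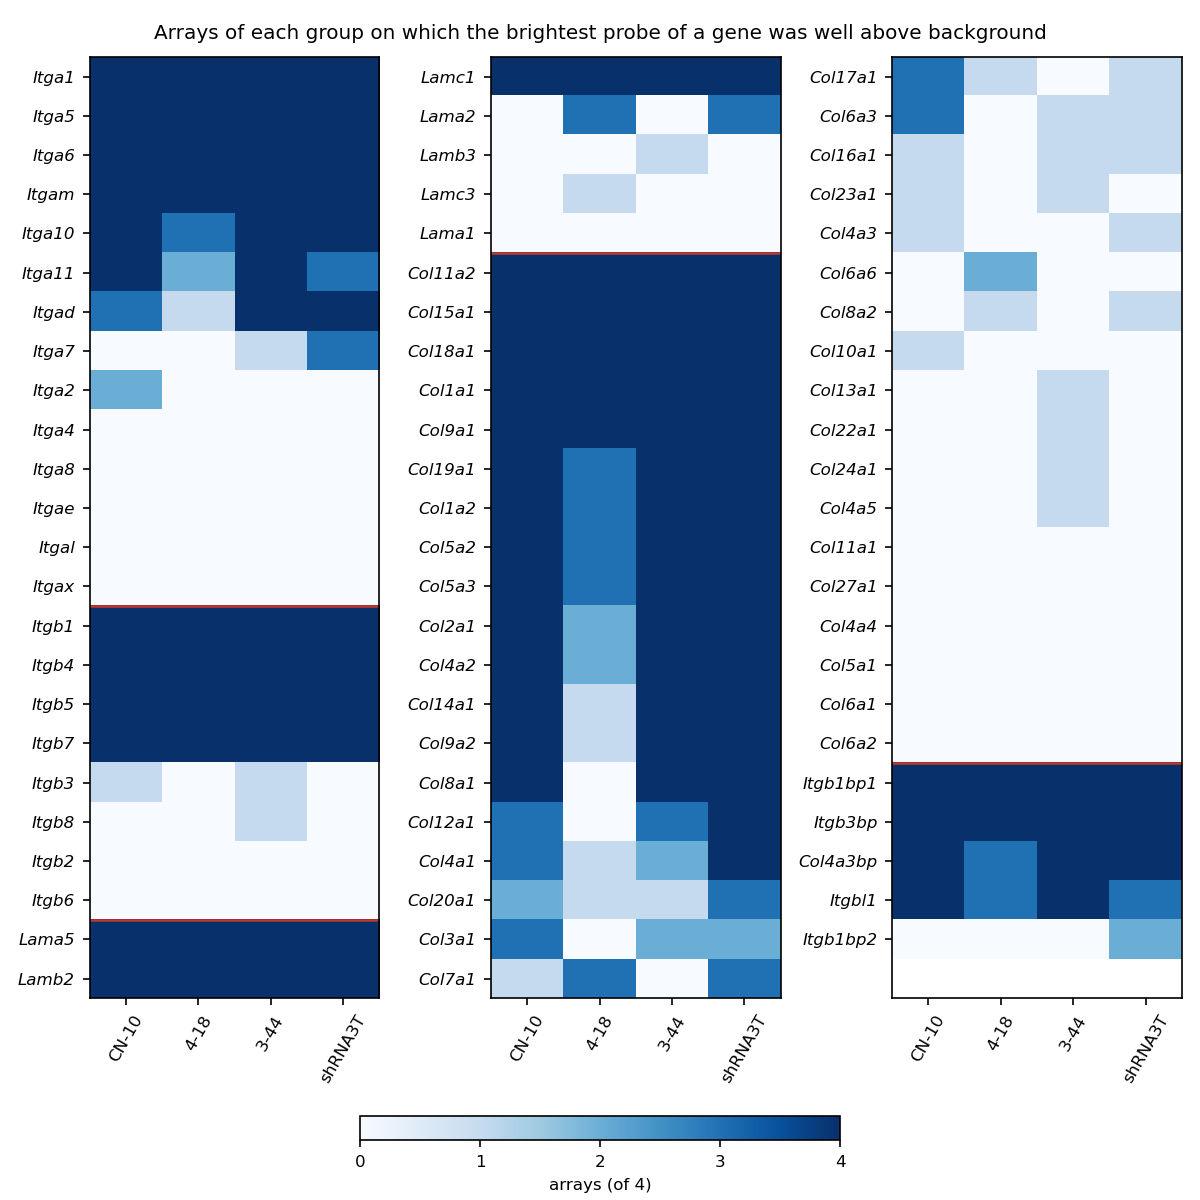
Number of arrays (0 to 4, color scale) of each group on which the brightest probe of each gene shown was well above background, with red lines between integrin α, integrin β, laminin, collagen and the 5 genes that only share the name. The column of 4-18 is paler than the others among the collagens, of which 5 were detected on all 4 of its arrays against 14 in CN-10.

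Cells that make fibrillar matrix were also looked for by their markers. Of 13 markers of stellate cells and fibroblasts only Acta2, Des and Vim were well above background on every array of a group, and Dcn, Lum, Lrat, Lhx2, Reln, Tagln and Thy1 were so on no array. The summed linear level of this list was 1456 to 1480 in CN-10, 1187 to 1261 in 4-18, 1251 to 1319 in 3-44 and 1183 to 1257 in shRNA3T. It was thus highest in CN-10. Of the 13 markers, 3 passed the adjusted p as lower than CN-10 in 4-18, 3 in 3-44 and 2 in shRNA3T. In each group 0 passed as higher. Of all genes 24.1%, 8.14% and 12.2% passed in either direction. Des was called lower in 4-18. The part of these markers in the collagen values was not tested. Of 8 endothelial markers Cdh5 and Vwf were well above background, whereas Pecam1, Tek, Tie1, Lyve1 and Emcn were on no array. Of 12 markers of macrophages and leukocytes 7 were well above background on every array of at least 1 group (Aif1, Cd14, Cd68, Clec4f, Csf1r, Emr1 and Lyz2), while Ptprc and Cd163 were on no array. Cd14 and Lyz2 were called higher in 3-44, where the summed level of the list was 5402 to 6721, against 2414 to 2884 in CN-10, 2439 to 2764 in 4-18 and 2259 to 4430 in shRNA3T. The part of these markers in the member values was not tested.

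Against CN-10, 3 members were called in clone 4-18, 1 in clone 3-44 and 1 in the pool shRNA3T. The integrin chain Itga1 was higher in 4-18 and in shRNA3T, the collagen Col11a2 was higher and Col19a1 lower in 4-18, and Col15a1 was lower in 3-44. In 4-18 the 3 of 72 amounted to 4.17%, against 6.15% of all genes tested, of which 2.62% were higher and 3.54% lower. In 3-44 the single call amounted to 1.39% against 1.47% of all genes, and in shRNA3T to 1.39% against 2.39%. This order depended on the processing, since in each comparison the members' share was the larger under some settings, as in 4-18 with scaling to the 75th percentile (55.6% against 45%) and with the processed signal (19.4% against 13.8%), and in shRNA3T with the processed signal (6.94% against 4.73%). By adjusted p alone, 14 members passed in 4-18 (19.4%, against 24.1% of all genes), 4 in 3-44 (5.56% against 8.14%) and 10 in shRNA3T (13.9% against 12.2%). Of these, 10, 4 and 9 were among the 34 detected members, next to 36.3%, 12.9% and 19.1% of all detected genes. Those outside in 4-18 included Itgb2, which was well above background on no array. The median change over the 72 members was -0.00 in 4-18, -0.03 in 3-44 and 0.00 in shRNA3T on the log2 scale, next to 0.00, -0.01 and -0.01 over all genes. The 3 comparisons share the CN-10 arrays, and their values are therefore given side by side without a test of their likeness.

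**Figure D2:**
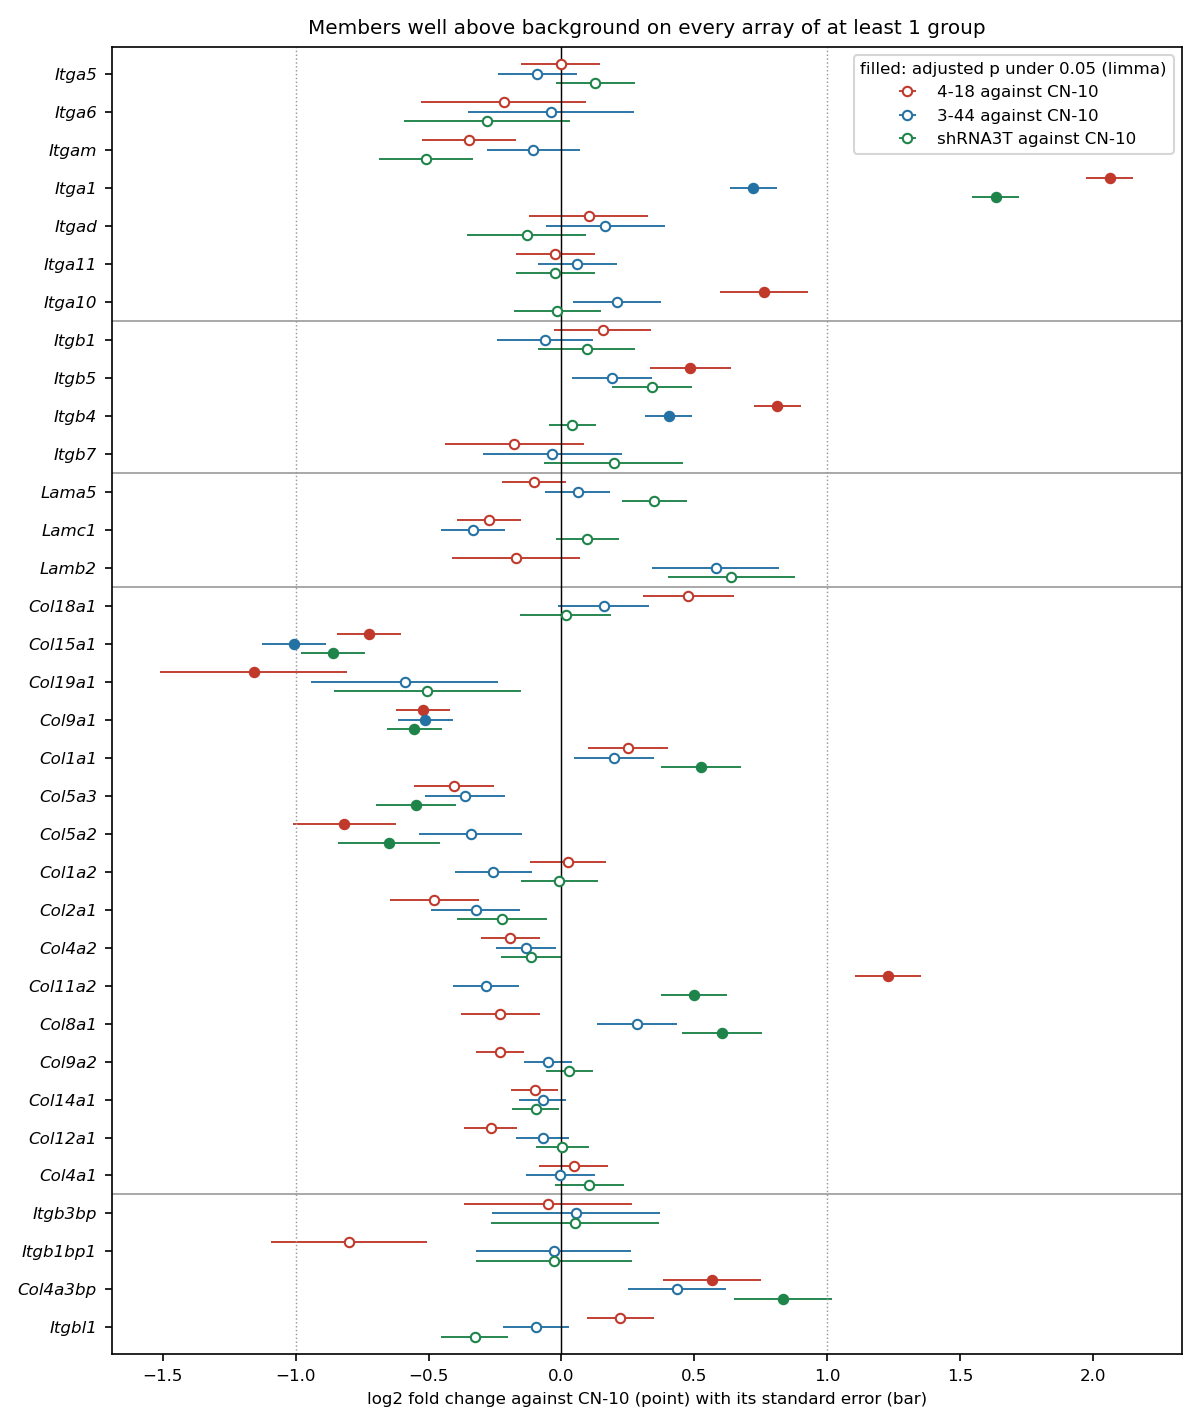
Log2 fold change against CN-10 (point) with its standard error (bar) for the 34 members detected on every array of at least 1 group, in 4-18 (red), 3-44 (blue) and shRNA3T (green). Filled points have an adjusted p under 0.05 and dotted lines mark 2-fold. Itga1 lies to the right in all 3 comparisons and Col15a1 and Col9a1 to the left, while most other members lie near 0.

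Among the receptors the clearest difference was that of Itga1, the α1 chain that pairs with Itgb1 to bind collagen and laminin. Its probe, printed 10 times on the array, read 7.57, 7.52, 7.55 and 7.46 in CN-10, and 8.45, 8.18, 8.15 and 8.23 in 3-44. Values were 9.30, 9.16, 9.16 and 9.03 in shRNA3T and 9.74, 9.49, 9.44 and 9.70 in 4-18. Every array of a silenced group was above every array of CN-10, and the 4 groups did not overlap with one another. The log2 fold change was 2.06 ± 0.09 in 4-18 (4.18-fold, limma adjusted p = 4.52e-10), 1.63 ± 0.09 in shRNA3T (3.10-fold, adjusted p = 2.37e-08) and 0.72 ± 0.09 in 3-44 (1.65-fold, adjusted p = 0.000113), the last of which did not pass with scaling to the 75th percentile or the authors' unscaled values. The exact permutation p was 0.0286 in each, the smallest that 4 against 4 arrays can give. A share of 12% of all genes in 4-18, 7.24% in 3-44 and 11% in shRNA3T had all silenced arrays above all CN-10 arrays. The silenced groups also differed among themselves, since 4-18 exceeded 3-44 by 1.34 ± 0.09 (adjusted p = 5.72e-08) and 3-44 lay below shRNA3T by -0.91 ± 0.09 (adjusted p = 1.21e-05), although both of the latter carry the shRNA3 plasmid. The excess of 4-18 over shRNA3T was 0.43 ± 0.09 (limma adjusted p = 0.0027), but it turned to -0.17 with the authors' unscaled values.

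The partner chain Itgb1, shared by most collagen and laminin receptors, read 12.20 ± 0.11 on average for CN-10, 12.35 ± 0.50 for 4-18, 12.14 ± 0.15 for 3-44 and 12.29 ± 0.11 for shRNA3T. None of its differences from CN-10 passed the test (limma adjusted p from 0.612 to 0.908), with values between -0.06 and 0.16, and its second probe gave -0.06, 0.22 and -0.10. The direction in each of the 3 comparisons changed among the settings tried, and in 4-18 the brightest probe ran from -0.59 with the authors' unscaled values to 0.40 without replicate 2 of 4-18, where it passed (limma adjusted p = 0.0115). Its α partners Itga5 and Itga6 gave no passing difference from CN-10 either. Itga5, the fibronectin receptor chain, read 8.80 ± 0.12 in CN-10 and between 8.70 and 8.92 in the silenced groups. Itga6, a laminin receptor chain, read 8.66 ± 0.70 in CN-10 and between 8.38 and 8.62 in the silenced groups, with changes of -0.22, -0.04 and -0.28 that lay within their standard errors of 0.31. Itga2, another collagen receptor chain, was well above background on only 2 arrays, both of CN-10.

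The β4 chain Itgb4, which pairs with Itga6 and anchors hemidesmosomes to laminin, was higher in both stable clones, while its change in the pool did not pass. Its values were 9.91, 9.89, 9.83 and 9.76 in CN-10 and 10.00, 9.96, 9.88 and 9.70 in shRNA3T, which overlapped. They were 10.13, 10.22, 10.27 and 10.37 in 3-44 and 10.86, 10.65, 10.59 and 10.52 in 4-18, in each case above every CN-10 array. The log2 fold changes were 0.81 ± 0.09 in 4-18 (limma adjusted p = 8.18e-06), 0.40 ± 0.09 in 3-44 (adjusted p = 0.0101) and only 0.04 ± 0.09 in shRNA3T (adjusted p = 0.884), all under 2-fold. With the authors' unscaled values the change in 4-18 was 0.19 and did not pass (adjusted p = 0.545), and that in 3-44 did not pass with those values or with scaling to the 75th percentile. The difference between 3-44 and shRNA3T was past the test (0.36 ± 0.09, limma adjusted p = 0.0151), but not with these 2 settings, with cyclic loess or without replicate 4 of shRNA3T (adjusted p = 0.0562). That between 4-18 and 3-44 was 0.41 ± 0.09 (adjusted p = 0.00348) but -0.10 with the authors' unscaled values.

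Itgb5, a β chain of the vitronectin receptors, was read by a pair of probes that differed in size of change. The brightest probe gave 11.80, 11.97, 11.93 and 11.99 in CN-10 and 12.16, 12.75, 11.96 and 12.76 in 4-18, which overlapped, for a change of 0.49 ± 0.15 (limma adjusted p = 0.0302) that became -0.24 with the authors' unscaled values and passed in 21 of 30 other settings. The second probe (chr11:68642561-68642620) gave 10.65, 10.50, 10.43 and 10.33 in CN-10 and 11.57, 11.60, 11.64 and 11.65 in 4-18. Here the groups lay far apart, and the change of 1.14 ± 0.11 (2.20-fold, adjusted p = 1.78e-06) would have been called. In 3-44 and shRNA3T neither probe passed the test, with changes of 0.19 and 0.34 for the brightest and -0.13 and 0.30 for the second.

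Itga10, a collagen receptor chain of cartilage, was also read by a pair of probes, which did not move together. The brightest went from 6.71 ± 0.05 in CN-10 to 7.47 ± 0.31 in 4-18 (0.76 ± 0.16, limma adjusted p = 0.00309), being well above background on 3 of 4 arrays there. Its second probe gave -0.15 ± 0.13 in 4-18 (adjusted p = 0.488), and 0.79 with scaling to the 75th percentile and 0.08 with the authors' unscaled values, so its direction depends on the scaling. The muscle chain Itga7, named after its values were seen, was well above background on no CN-10 array and on 3 shRNA3T arrays, and was at least 1.33-fold higher there (adjusted p = 0.000848). Itgam, the α chain of a leukocyte receptor, read 8.62 ± 0.17 in CN-10 and 8.11 ± 0.10 in shRNA3T, with no passing difference (adjusted p = 0.079). The other chains of the αv receptors, Itgb3, Itgb6 and Itgb8, were well above background on 2, 0 and 1 of the 16 arrays. Itga3 and Itgav were not analysed here.

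**Figure D3:**
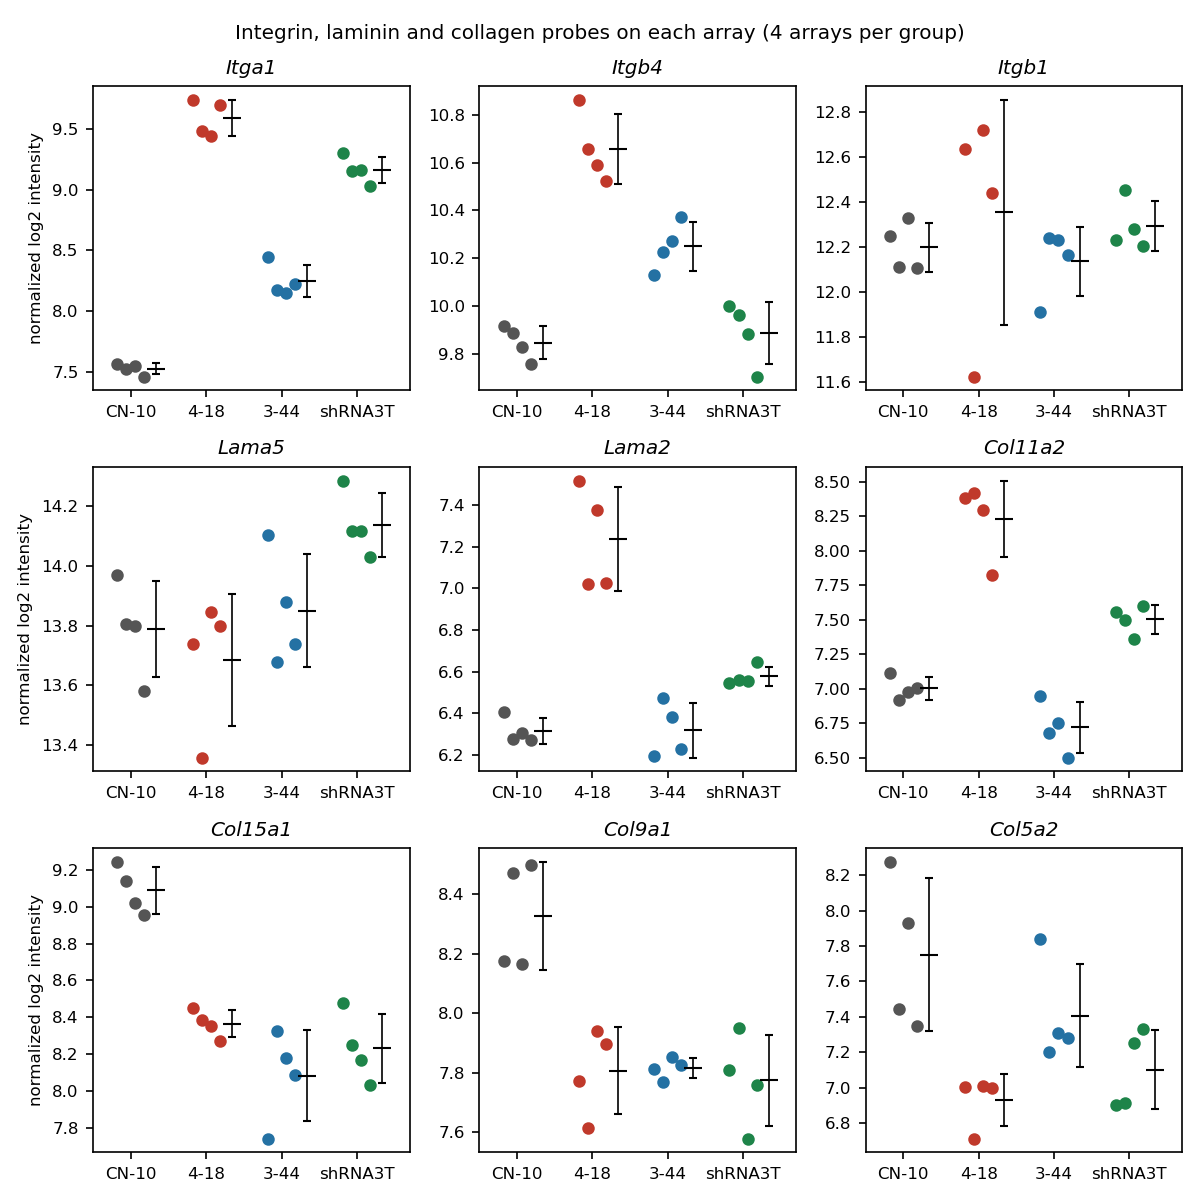
Normalized log2 intensity of 9 members on each of the 4 arrays per group (points), with the mean and SD of the group at the right of each set (black). Axes differ between genes and do not start at 0. Itga1 separates all 4 groups, and Col15a1 and Col9a1 are lower in every silenced array. Itgb1 and Lama5 do not separate the silenced clones from CN-10, but Lama5 is higher on every shRNA3T array than on any CN-10 array.

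No laminin chain was called in any comparison with CN-10. At an unadjusted limma p under 0.05 there were 3 of 8 laminins in 4-18, 2 in 3-44 and 3 in shRNA3T (next to 34.6%, 19.6% and 23.3% of all genes). Other settings did call laminins. In 4-18, Lama2 was called with scaling to the 75th percentile, the processed signal, the authors' unscaled values, a normexp offset of 16 and a 1.5-fold limit. Lamc1 was called there with the unscaled values and when any probe counted. Lamc3 was called with the processed signal and the 75th percentile, which also called Lama1 and Lamb3 and 45% of all genes. In shRNA3T the processed signal called Lama2. Lama5, Lamb2 and Lamc1, which together form a basement membrane laminin, were well above background on all 16 arrays, whereas Lama1 was so on none, and Lamb3, an epidermal chain, on 1. Lama3 and Lamb1 were not analysed here. Lama5 read 13.79 ± 0.16 on average for CN-10, 13.68 ± 0.22 for 4-18, 13.85 ± 0.19 for 3-44 and 14.14 ± 0.11 for shRNA3T, where the excess of 0.35 ± 0.12 did not pass (limma adjusted p = 0.0821). All shRNA3T arrays were above all CN-10 arrays, as for 11% of all genes. Between silenced groups, 4-18 lay below shRNA3T by -0.45 ± 0.12 (adjusted p = 0.0150).

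Lamb2, the β2 chain, varied more between arrays. It read 10.66, 10.53, 9.96 and 10.43 in CN-10 and 10.70, 10.57, 9.90 and 9.72 in 4-18, and 10.49, 11.03, 11.16 and 11.23 in 3-44 and 10.57, 11.25, 11.21 and 11.11 in shRNA3T. All 4 groups overlapped. No difference from CN-10 passed (-0.17, 0.58 and 0.64 with a standard error of 0.24), but 4-18 was below 3-44 by -0.75 ± 0.24 (limma adjusted p = 0.0351) and below shRNA3T by -0.81 ± 0.24 (adjusted p = 0.0257), which passed in 23 and 24 of 30 other settings.

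Lamc1, the γ1 chain found in most laminins, was read by a pair of detected probes. The brightest probe, printed 10 times per array, read 12.66, 12.62, 12.67 and 12.80 in CN-10 and 12.46, 12.70, 12.34 and 12.16 in 4-18, which overlapped (-0.27 ± 0.12, limma adjusted p = 0.118). The second probe, whose sequence is given above, read 9.44, 9.26, 9.30 and 9.08 in CN-10 and 8.34, 8.40, 7.99 and 8.16 in 4-18, entirely below. Its change of -1.05 ± 0.13 (2.07-fold lower, adjusted p = 2.70e-05) would have been called, while it gave 0.17 in 3-44 and -0.13 in shRNA3T. The brightest probe gave -0.33 in 3-44 and 0.10 in shRNA3T (limma adjusted p = 0.118 and 0.742). All its arrays of 3-44 lay below CN-10, as for 9.03% of all genes. It was below shRNA3T by -0.37 in 4-18 and -0.43 in 3-44 (limma adjusted p = 0.0395 and 0.0308), passing in 19 and 21 of 30 other settings. Which transcripts hold each of these probes was not tested.

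Lama2, the α2 chain of muscle and nerve laminin, was named after its values were seen. It read 6.40, 6.28, 6.31 and 6.27 in CN-10, where it was well above background on no array, and 7.52, 7.02, 7.37 and 7.03 in 4-18, where it was so on 3 of 4. All arrays of 4-18 were above those of the other groups. It was at least 1.87-fold higher in 4-18 than in CN-10 (limma adjusted p = 1.30e-05) and at least 1.86-fold higher than in 3-44 (adjusted p = 1.54e-05). In shRNA3T it was well above background on 3 arrays, at 6.58 ± 0.05, and the difference from CN-10 did not pass (adjusted p = 0.137).

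**Figure D4:**
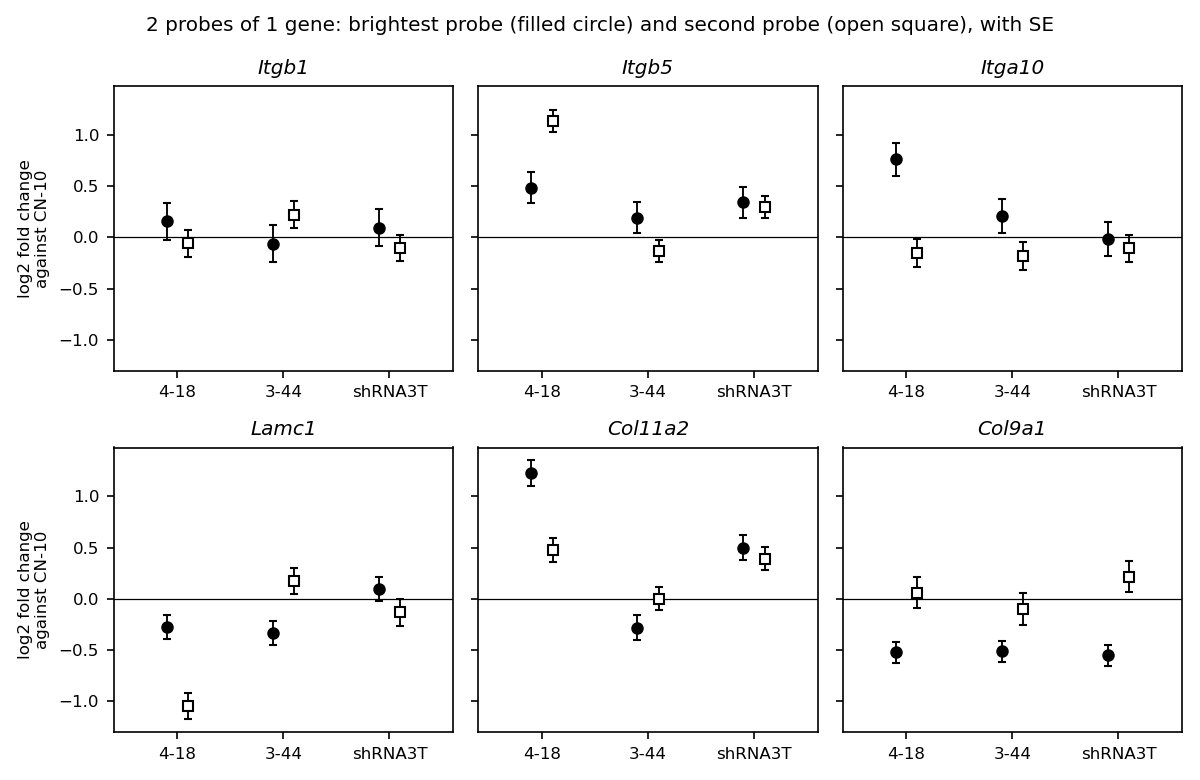
Log2 fold change against CN-10 with its standard error for 6 genes with more than 1 detected probe, the brightest probe as a filled circle and the second as an open square. In 4-18 the probes of Itgb5 and Lamc1 differ in size, those of Itga10 and Col9a1 differ in direction (for Itga10 not with scaling to the 75th percentile or the unscaled values, for Col9a1 not with cyclic loess), and those of Col11a2 are both above 0.

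Collagens went in both directions. Col15a1 and the brightest probe of Col9a1 were lower in every silenced group, and Col11a2 was higher in 4-18. Col15a1, a basement membrane collagen that carries an endostatin-like domain, read 9.24, 9.14, 9.02 and 8.95 in CN-10 and 8.45, 8.39, 8.35 and 8.27 in 4-18. It read 7.74, 8.32, 8.18 and 8.09 in 3-44 and 8.48, 8.25, 8.17 and 8.03 in shRNA3T. All 12 silenced arrays lay below all 4 control arrays. The log2 fold changes were -1.01 ± 0.12 in 3-44 (2.01-fold lower, limma adjusted p = 8.82e-05), -0.86 ± 0.12 in shRNA3T (1.81-fold, adjusted p = 0.000208) and -0.72 ± 0.12 in 4-18 (1.65-fold, adjusted p = 0.000399). With scaling to the 75th percentile the change in 4-18 was -0.36 and did not pass (adjusted p = 0.179), and with the authors' unscaled values those in 3-44 and shRNA3T did not pass (adjusted p = 0.0764 and 0.167). The call in 3-44 sat at the 2-fold limit and was also lost with array weights and without replicate 1 of 3-44 (-0.89), without replicate 1 of CN-10 (-0.95) and without replicate 2 of CN-10 (-0.99). The shares of all genes with every silenced array below every control array were 11.5% in 4-18, 9.03% in 3-44 and 11.2% in shRNA3T.

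Col9a1, a cartilage collagen of the fibril surface, was lower by a similar amount in the 3 groups. Its brightest probe read 8.18, 8.47, 8.17 and 8.50 in CN-10 and between 7.58 and 7.95 on the 12 silenced arrays, with no overlap. The changes were -0.52, -0.51 and -0.55 (each ± 0.10, limma adjusted p = 0.00152, 0.00536 and 0.00196 in 4-18, 3-44 and shRNA3T), and in each group they did not pass with scaling to the 75th percentile or with the authors' unscaled values. A second probe of Col9a1 gave 0.06, -0.10 and 0.22 with adjusted p from 0.469 to 0.83, another was well above background on no array, and in 4-18 its direction turned with cyclic loess (-0.01). The probes therefore do not give the same picture. With scaling to the 75th percentile, which moved the median of all genes in 4-18 by 0.84, the change of the brightest probe in 4-18 was -0.01, or -0.85 relative to that median.

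Col11a2, a minor fibrillar chain of type XI collagen, read 7.11, 6.92, 6.97 and 7.00 in CN-10, 8.38, 8.42, 8.29 and 7.82 in 4-18, 6.95, 6.68, 6.75 and 6.50 in 3-44 and 7.56, 7.49, 7.36 and 7.60 in shRNA3T. The arrays of 4-18 were highest, those of shRNA3T came next, and 3-44 overlapped CN-10. The log2 fold change was 1.23 ± 0.12 in 4-18 (2.34-fold, limma adjusted p = 4.06e-06), 0.50 ± 0.12 in shRNA3T (adjusted p = 0.0150) and -0.28 ± 0.12 in 3-44 (adjusted p = 0.222). With cyclic loess the change in 4-18 was 0.997, just short of the 2-fold limit, and that in shRNA3T passed in 27 of 30 other settings. Clone 4-18 exceeded clone 3-44 by 1.51 ± 0.12 (2.85-fold, adjusted p = 5.87e-07). The second probe of Col11a2 gave smaller changes, of 0.47 ± 0.12 in 4-18 (limma adjusted p = 0.00733) and of 0.39 ± 0.12 for the pool (adjusted p = 0.0385). Its partner chain Col11a1 was well above background on no array.

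Col19a1, a collagen of the basement membrane zone, varied widely between replicates. It read 9.31, 9.08, 9.21 and 8.40 in CN-10 and 7.78, 6.96, 8.04 and 8.58 in 4-18, so that replicate 4 of each group overlapped. The change of -1.16 ± 0.35 (limma adjusted p = 0.0259) was called in 4-18, with an exact permutation p of 0.0571, and did not pass the adjusted p without replicate 1, 2 or 3 of CN-10 or without replicate 1 or 2 of 4-18, nor with scaling to the 75th percentile (-0.74), and fell short of 2-fold with array weights (-0.96). In 3-44 and shRNA3T it gave -0.59 and -0.50 (adjusted p = 0.407 and 0.462).

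Of the type V fibrillar chains, Col5a2 was lower in 4-18 and shRNA3T. It read 8.28, 7.44, 7.93 and 7.35 in CN-10, 7.01, 6.71, 7.01 and 7.00 in 4-18, 7.84, 7.20, 7.31 and 7.28 in 3-44 and 6.90, 6.91, 7.25 and 7.33 in shRNA3T. Arrays of 4-18 and shRNA3T lay below those of CN-10, and those of 3-44 overlapped. The changes were -0.82 ± 0.19 in 4-18 (limma adjusted p = 0.00589), -0.65 ± 0.19 in shRNA3T (adjusted p = 0.0405) and -0.34 ± 0.19 in 3-44 (adjusted p = 0.372), and in 4-18 the change was -0.005 with scaling to the 75th percentile, or -0.85 relative to the median of all genes. The change of Col5a2 in shRNA3T passed in only 18 of 29 other settings, and not without replicate 1 or 3 of CN-10, 3 or 4 of 3-44 or 1, 2 or 3 of shRNA3T. Col5a3 was lower in shRNA3T (-0.55 ± 0.15, adjusted p = 0.0270, passing in 21 of 29 other settings) and gave -0.41 and -0.36 in 4-18 and 3-44, which did not pass. Col5a1 was well above background on no array.

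Col8a1, a short-chain network collagen, was higher in shRNA3T, at 7.15, 7.32, 7.47 and 7.78 against 6.89, 6.70, 6.94 and 6.77 in CN-10, with no overlap (0.60 ± 0.15, limma adjusted p = 0.0147, passing in 24 of 29 other settings). In 4-18 it was well above background on no array. It was at least 1.40-fold lower there than in 3-44 and at least 1.75-fold lower than in shRNA3T (limma adjusted p = 0.0221 and 0.000905). These passed in 20 and 27 of 29 other settings, but not with scaling to the 75th percentile, where the direction turned. Col1a1, the main chain of type I collagen, was higher in shRNA3T by 0.52 ± 0.15 (adjusted p = 0.0338), which passed in 21 of 30 other settings and not without replicate 2, 3 or 4 of CN-10 or 1, 3 or 4 of shRNA3T, while its partner Col1a2 gave 0.02, -0.26 and -0.01 in 4-18, 3-44 and shRNA3T, none of which passed. Col18a1, the source of endostatin and among the brightest members, read 13.30 ± 0.16 in CN-10 and 13.78 ± 0.13 in 4-18, where all arrays were above the control but the change of 0.48 ± 0.17 did not pass (adjusted p = 0.0577) and was -0.25 with the authors' unscaled values. Col6a6 and Col7a1, named after their values were seen, were higher in 4-18. Col6a6 was well above background on 2 arrays of 4-18 and on none of CN-10, and at least 1.60-fold higher (adjusted p = 0.00111). Col7a1, which was well above background on every array of no group, rose by 0.44 ± 0.08 (adjusted p = 0.00128).

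The type IV chains Col4a1 and Col4a2, the main network of basement membranes, were dim and differed from CN-10 by between -0.19 and 0.11 without passing the test (limma adjusted p from 0.253 to 0.991). Col4a2 read 7.11 ± 0.13 on average for CN-10, 6.91 ± 0.22 for 4-18, 6.97 ± 0.15 for 3-44 and 6.99 ± 0.09 for shRNA3T. The pair is transcribed in opposite directions from a shared stretch of 76 bases, which is shown here as the gap between both RefSeq genes (chr16:84885521-84885596 of the GRCr8 build, plus strand). Capitals mark the only match of GGGCGG on either strand. Neither CCAAT nor TATAAA was found in this gap on either strand. The wider promoter windows of 300 bases held CCAAT, but not TATAAA, for both genes.
Col4a2-Col4a1: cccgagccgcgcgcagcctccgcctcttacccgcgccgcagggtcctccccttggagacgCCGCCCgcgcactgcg
Among promoter windows of 300 bases, GGGCGG was in 31 of 56 member promoters (55.4%, against 33.1% of 33469 promoters), CCAAT in 15 (26.8% against 37.5%) and TATAAA in 5 (8.93% against 14.2%), counted on both strands. These shares describe letters, not binding.

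Of the 5 genes that share only the name, Col4a3bp alone passed the test against CN-10. This ceramide carrier was higher by 0.83 ± 0.18 in shRNA3T (limma adjusted p = 0.00729) and by 0.57 ± 0.18 in 4-18 (limma adjusted p = 0.0368), with 0.43 ± 0.18 in 3-44 (adjusted p = 0.203). The change in 4-18 passed in 21 of 29 other settings, and not without any one array of CN-10 or without replicate 3 or 4 of 4-18. Itgb1bp1, which binds the tail of Itgb1, gave -0.80 ± 0.29 in 4-18 (adjusted p = 0.0623) and -0.03 in the other groups. In 4-18 it passed in 7 of 30 other settings and was called in 2 of them, with the authors' unscaled values (-1.53) and without replicate 4 of 4-18 (-1.18). Itgb3bp stayed between -0.05 and 0.06.

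Between silenced groups, 2 members were called in 4-18 against 3-44, Itga1 and Col11a2, both higher in 4-18 (2.78%, against 4.98% of all genes), of which Itga1 fell short of 2-fold with the authors' unscaled values (0.94). None of the 72 was called by limma in 4-18 against shRNA3T (4.56% of all genes) or in 3-44 against shRNA3T (2.12%), with 22 and 12 members at an unadjusted p under 0.05, next to 30.9% and 23.1% of all genes. By adjusted p alone 10, 15 and 5 members passed, against 22.5%, 20.5% and 10.9% of all genes. Of these, 6, 9 and 4 were among the 34 detected members, next to 33.4%, 31.2% and 16.8% of all detected genes.

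Genes that act with the families were read from fixed lists. Their calls stand next to 2.62% of all genes called higher and 3.54% lower in 4-18, and 1.47% called in 3-44 and 2.39% in shRNA3T in either direction, and with so few calls per list nothing is read from the counts. Of 25 genes for integrin adhesion (mostly actin linkers and signaling proteins, with Cd9, Cd151 and the secreted Tgfbi), 0 were called higher and 2 lower in 4-18, namely Parva (-1.39 ± 0.24) and the actin linker Vcl (-1.04 ± 0.12). In 3-44 only Lims2 was called (1.13 ± 0.20), and in shRNA3T Lims2 (1.31 ± 0.20) and Tns3 (1.72 ± 0.12) were higher and Lims1 lower (-1.07 ± 0.19). Tns3, which binds integrin tails, was higher in every silenced group (0.73 and 0.90 in 4-18 and 3-44, limma adjusted p = 0.000256 and 0.000161). The median of the list was 0.02 in 4-18, 0.03 in 3-44 and 0.08 in shRNA3T.

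Among 24 measured matrix glycoproteins and proteoglycans, Bgn, a small proteoglycan that binds collagen, was lower in all groups, by -1.75 ± 0.20 in 4-18, -0.96 ± 0.20 in 3-44 and -2.32 ± 0.20 in shRNA3T (limma adjusted p = 1.34e-05, 0.00712 and 2.56e-06), of which the first and the last were called. Ctgf, a secreted integrin ligand, was well above background on no array of 4-18 or 3-44 and on 2 of shRNA3T. It was at least 2.02-fold lower in 3-44 and at least 1.74-fold lower in 4-18, where it gave 0.05 with scaling to the 75th percentile, and it was lower by -0.95 ± 0.07 in shRNA3T (limma adjusted p = 1.53e-07, 1.10e-07 and 5.56e-07). Cyr61, a related ligand, was called lower in shRNA3T (-1.05 ± 0.17). Vtn, the ligand of Itgb5 receptors, was well above background on no array of CN-10 and at least 2.74-fold higher in shRNA3T. The median of this list was -0.06, -0.03 and -0.06.

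Of 25 genes for collagen processing, 2 were called higher and 2 lower in 4-18. The prolyl hydroxylase subunits P4ha1 (1.12 ± 0.21) and P4ha2 (1.33 ± 0.11) were higher, and Crtap (-1.21 ± 0.22) and the collagen galactosyltransferase Glt25d1 (-1.07 ± 0.16) lower. In 3-44 the cross-linking oxidase Loxl2 was lower by -2.20 ± 0.15 (limma adjusted p = 3.65e-07), and in shRNA3T the lysyl hydroxylase Plod1 was higher by 1.35 ± 0.27, with 1 CN-10 array left out as an outlier spot. The median was 0.09, -0.03 and 0.05.

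Of 30 matrix proteases and inhibitors, the membrane protease Mmp24 was called lower in all 3 groups, from 12.41 ± 0.03 in CN-10 to 10.78 ± 0.21 in 4-18, 10.59 ± 0.12 in 3-44 and 11.16 ± 0.12 in shRNA3T (limma adjusted p = 1.87e-08, 2.30e-08 and 1.06e-06). In 4-18 Mmp14, the main collagen-degrading protease of the cell surface, was also lower (-1.28 ± 0.11). The medians were 0.01, -0.01 and -0.04. Of 13 other matrix receptors, the syndecan Sdc2 (1.07 ± 0.10) and the hyaluronan receptor Cd44 (1.06 ± 0.25) were called higher in 4-18 and Sdc4 (1.15 ± 0.09) in shRNA3T, with medians of 0.15 in 4-18, 0.22 in 3-44 and 0.39 in shRNA3T. In the comparisons in which they were called, all list genes named kept their direction under the 5 scalings tried.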

How the data were processed

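Total RNA of 4 groups of H35 cells, 4 arrays each, was read on 1-colour Agilent arrays. The authors deposited linear spot and background intensities from Feature Extraction 10.7.3.1, with probe positions on build rn4. A deposited table of the authors' values, of another kind than intensities, had lost its decimal points. Put back, its values equalled the log2 normexp-corrected median signal within 3.99e-11, with no scaling between arrays. The submitters' processing notes name limma, with no version given in the sources used here.

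Mean signals were background-corrected here with normexp (offset 50), control spots and outlier-flagged spots were left out, and log2 values were brought to a common distribution across arrays (quantile normalization). Spots of a probe were averaged, and each gene was given by its brightest probe. All 16 arrays entered a single fit (lmFit and eBayes, limma 3.58.1, R 4.3.3), with Benjamini-Hochberg adjustment over all probes in each of 6 comparisons. The fit was also tried on simulated data that took their means and spreads from these arrays. Calls needed 2-fold and an adjusted p under 0.05. Where a gene was well above background on no array of a group, the fold is a lower bound. The number of arrays limits the precision. The arrays of a group are called biological replicates, but the sources used here do not say that they came from separate cultures, so p-values measure the spread between these arrays.

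Named genes were all members called in any comparison, up to 10 more per comparison with an adjusted p under 0.05 and the largest change against CN-10, and the chains of fixed receptor pairs and trimers. Members and lists were chosen with earlier results of these data known. A few genes of the lists are not reported here by name. RefSeq entries were found for 72 of 72 genes. Alternatives covered background correction, scaling, the authors' values, filters, weights, probe choice, the fold limit and left-out arrays.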

Additional observations from a re-analysis of the deposited data

Results flagged for a closer look

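Among 148 groups of 4 arrays, 9 held an array far from the other 3 by Dixon's test, which is 6.08% where chance flags about 1 in 20 groups. Of these, Col19a1 read 9.58 in replicate 1 of shRNA3T against 8.03 to 8.20 in the others, and Col1a2 read 7.92 on the same array against 7.51 to 7.55. Col5a2 read 6.71 in replicate 2 of 4-18 against 7.00 to 7.01, and 7.84 in replicate 1 of 3-44 against 7.20 to 7.31. Itga10 read 7.48 in replicate 4 of 3-44 against 6.65 to 6.78. The remaining cases were dim genes. Lama1 read 6.44 in replicate 3 of 3-44, Itgb1bp2 6.26 in replicate 3 of 3-44 and 6.59 in replicate 4 of shRNA3T, and Lama2 6.65 in replicate 4 of shRNA3T.

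In the direct test between the silenced clones 2 members differed by at least 2-fold, among 10 that passed the adjusted p. Col11a2 was higher in 4-18 than in 3-44 by 1.51 and Itga1 by 1.34 on the log2 scale.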

How the results depend on the processing

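The number of members called in 4-18 against CN-10, 3-44 and shRNA3T depended on the scaling. With scaling to the 75th percentile it was 40, 36 and 45 in place of 3, 2 and 0, with 45%, 37.7% and 50% of all genes called and their medians moved to 0.84, 0.83 and 0.95. The processed signal gave 14, 13 and 12, with 5 in shRNA3T against CN-10 and 4 in 3-44 against shRNA3T, where 13.8%, 10.8%, 16.8%, 4.73% and 3.59% of all genes were called. The authors' unscaled values gave 8, 4 and 5, with 0 in 3-44 against CN-10 and 1 in 3-44 against shRNA3T (11.5%, 9.07%, 10.2%, 0.723% and 1.24% of all genes). A normexp offset of 16 gave 7, 4 and 3, with 2 in shRNA3T against CN-10 and 1 in 3-44 against shRNA3T (7.75%, 6.05%, 5.59%, 2.99% and 2.66%). A 1.5-fold limit gave 9, 5 and 7, with 2 in 3-44 and 5 in shRNA3T against CN-10 and 2 in 3-44 against shRNA3T (15.6%, 13.6%, 12.8%, 4.88%, 7.53% and 6.43%). Counting any probe gave 5 in 4-18 against CN-10 and 4 against 3-44 (6.53% and 5.34%). Array weights, and leaving out replicate 1 of every group, each gave 0 in 3-44 against CN-10 and 1 in 4-18 against shRNA3T, and cyclic loess gave 1 in 3-44 against shRNA3T. Leaving out single arrays gave 2 to 4 in 4-18, 0 to 1 in 3-44 and 1 in shRNA3T against CN-10, and 2 to 3, 0 to 1 and 0 between silenced groups, where the 1 in 4-18 against shRNA3T came without replicate 4 of 4-18. The causes were not tested.

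Directions were compared where at least 2 arrays of a group were well above background, and 12 differences of the genes reported here that passed the adjusted p under at least 1 of the settings compared turned, all in 4-18. Differences that passed under neither setting also changed sign, in each of the 6 comparisons, and are not counted. With scaling to the 75th percentile Itga2 (1.21) turned against CN-10, Col8a1 (0.51) and Col4a2 (0.90) against 3-44, and Col8a1 (0.30), Col4a1 (1.24), Col4a2 (1.03), Itgb1bp2 (1.17) and Itga7 (0.89) against shRNA3T. With the authors' unscaled values Itgb5 turned against CN-10 (-0.24), Itgb4 against 3-44 (-0.10), and Itga1 (-0.17) and Itga7 (0.17) against shRNA3T. Itga1 stayed called against CN-10 in 4-18 and shRNA3T under all 30 settings. The replicate number as a block left the counts at 3, 1, 1, 2, 0 and 0. Same-numbered arrays correlated between -0.11 and 0.44 in their deviations. Their medians, of 0.02 to 0.17, lay above those of other-numbered arrays (-0.10 to 0.00) in every pair of groups. Whether the numbers pair the arrays was therefore not settled. The scalings of list genes and second probes were chosen after seeing the data. Signal over background limits the dim chains, most of all in 4-18.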
